A study of Solanum lycopersicum with 12 samples.

Results

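SlPIN5 (gene1391) and SlPIN6 (gene15300) are 2 of the 9 tomato genes annotated as auxin efflux facilitators, among 22827 genes measured in whole fruits at 5 DPA (days post anthesis). They were taken up together because their levels moved in opposite directions in fruits that express a grapevine sucrose transporter, so their own levels are given below as a description, with no test. RNA was sequenced from WT fruits, which are untransformed Micro-Tom tomatoes, and from 3 overexpressing lines, called VvSUC11-OE, VvSUC12-OE and VvSUC27-OE, in which the grapevine gene of that name is driven by the constitutive 35S promoter. Each group had 3 biological replicates, which makes 12 libraries. Fruits of the T1 generation were used for VvSUC11-OE and VvSUC12-OE and of the T0 generation for VvSUC27-OE, every genotype being represented by its line 5 alone, so that transgene, line and generation cannot be told apart in the comparisons with the WT.

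PIN proteins are membrane carriers that move the hormone auxin out of the cytosol. The long members sit in the plasma membrane, where their position on one side of the cell sets the direction of auxin flow. The short members, of which PIN5 is an example in Arabidopsis, are found largely at the endoplasmic reticulum and take part in the balance of auxin inside the cell, and Arabidopsis PIN6 has been found at both membranes. In tomato, auxin made after pollination and fertilisation is a trigger of fruit set, and the transport of auxin out of the seeds and through the young fruit is part of the early growth measured here.

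Levels are given as FPKM (fragment numbers corrected for transcript length and library size), which allow genes of different length to be compared, and as the counts deposited by the authors, which had been scaled to a common library size and made whole numbers. These scaled counts summed to between 20530052 and 21795363 per library. All 9 auxin efflux genes had an entry in the RefSeq annotation of the SLM_r2.1 assembly under the same gene ID.

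SlPIN5 was present in the WT and nearly gone from the fruits of all 3 transgenic lines. Its level in the WT replicates was 5.79, 7.43 and 4.67 FPKM, or 86, 114 and 70 scaled counts. In the VvSUC11-OE fruits the 3 libraries held 0 scaled counts each, and an FPKM of 0.0603 was listed in replicate 1 and 0 in the other two. The VvSUC27-OE libraries held 1, 2 and 0 scaled counts, at 0.129, 0.130 and 0.0642 FPKM. Expression was low but measurable in the VvSUC12-OE fruits, with 7, 10 and 11 scaled counts and 0.499, 0.684 and 0.7497 FPKM. The whole numbers were apparently cut down rather than rounded, since 1 scaled count of SlPIN5 is worth 0.0664 FPKM and the libraries at 0.0603 and 0.0642 FPKM are listed at 0 scaled counts. A 0 is thus read as less than 1 scaled count. The 9 transgenic libraries all lay below the lowest WT library, and the VvSUC12-OE libraries all lay above those of the other two lines.

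The mean of SlPIN5 was 5.97 ± 1.39 FPKM (SD, n = 3) in the WT, 0.0201 ± 0.0348 FPKM in VvSUC11-OE, 0.644 ± 0.130 FPKM in VvSUC12-OE and 0.108 ± 0.0379 FPKM in VvSUC27-OE. The WT level was 9.26 times that of VvSUC12-OE, with an SD of 2.85 carried over from the replicates. On the summed scaled counts, 270 against 28, the ratio was 9.64 with an exact 95% interval of 6.52 to 14.8 that covers counting error only. Against a limit of 3 scaled counts per library, worth 0.199 FPKM for this gene, SlPIN5 was at least 29.9-fold lower than in the WT in VvSUC11-OE and in VvSUC27-OE. As listed, 270 scaled counts in the WT stood against 3 in VvSUC27-OE, a ratio of 90.0 with a counting interval of 30.5 to 439. With counts this low apparently cut down, that ratio and its interval are imprecise and likely too high. On the FPKM the ratio was 55.3. It was 60.0 to 180 on the scaled counts when a VvSUC27-OE library was left out. The 180 came without replicate 2 and the 60.0 without replicate 3. Replicate 2 was listed at 2 of the 3 scaled counts, though at nearly the same FPKM as replicate 1 (0.130 and 0.129). SlPIN5 was at least 3.23-fold higher in VvSUC12-OE than in VvSUC11-OE, and no fold is given between VvSUC27-OE and VvSUC11-OE because both lay at or under the limit. In whole fruits, fewer cells of a type and less RNA per cell cannot be told apart.

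SlPIN6 moved the other way and over a much smaller range. Its level in the WT replicates was 7.22, 7.32 and 6.70 FPKM, or 251, 261 and 228 scaled counts. The VvSUC11-OE libraries held 8.52, 9.17 and 9.25 FPKM and the VvSUC27-OE libraries 9.62, 9.68 and 8.49 FPKM. The highest values were those of VvSUC12-OE, at 12.4, 15.5 and 14.97 FPKM. All 9 transgenic libraries lay above the highest WT library, and the 3 VvSUC12-OE libraries lay above all others, whereas the ranges of VvSUC11-OE and VvSUC27-OE overlapped.

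The SlPIN6 means were 7.08 ± 0.335 FPKM in the WT, 8.98 ± 0.401 FPKM in VvSUC11-OE, 14.3 ± 1.63 FPKM in VvSUC12-OE and 9.26 ± 0.667 FPKM in VvSUC27-OE (SD, n = 3 each). Relative to the WT these are folds of 1.27, 2.02 and 1.31, with SDs of 0.0825, 0.25 and 0.113. VvSUC12-OE stood 1.59-fold above VvSUC11-OE and 1.54-fold above VvSUC27-OE. VvSUC27-OE and VvSUC11-OE differed by 1.03-fold, less than the spread between replicates (SD of the fold 0.0874).

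**Figure D1:**
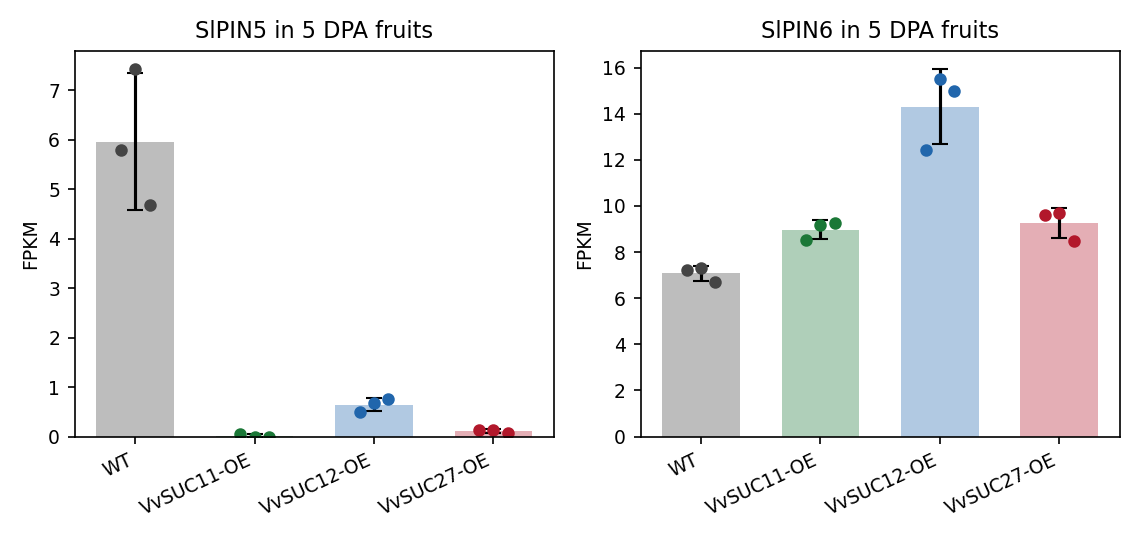
FPKM of SlPIN5 (left) and SlPIN6 (right) in 5 DPA fruits, with 1 point per library, bars for the group mean and error bars for the SD of 3 libraries. SlPIN5 falls from 5.97 FPKM in the WT to at most 0.644 FPKM in the 3 lines, while SlPIN6 is lowest in the WT and reaches 14.3 FPKM in VvSUC12-OE.

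The 2 genes thus did not mirror each other from line to line. VvSUC12-OE had the largest excess of SlPIN6 and also kept the most SlPIN5, whereas VvSUC11-OE and VvSUC27-OE, with SlPIN5 at or under the limit, had excesses of SlPIN6 that did not differ beyond their spread. In the WT the ratio of SlPIN6 to SlPIN5 in FPKM was 1.22 ± 0.225 (SD, n = 3), that is, nearly equal levels. It was 22.5 ± 2.49 in VvSUC12-OE and 93.6 ± 33.4 in VvSUC27-OE, and it has no mean in VvSUC11-OE, where SlPIN5 was listed at 0 in replicates 2 and 3.

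In the limma fits, which use log2(scaled count + 1), the log2 fold change (log2FC) of SlPIN6 against the WT was 0.35 (SE 0.0885) in VvSUC11-OE, 1.03 (SE 0.084) in VvSUC12-OE and 0.43 (SE 0.0911) in VvSUC27-OE. The fitted log2FC of SlPIN5 was -3.13 (SE 0.268) in VvSUC12-OE. The fitted values of -6.48 and -5.62 in VvSUC11-OE and VvSUC27-OE depend on the added count and are no measure of size. For both genes the scaled counts of each line were separate from those of the WT, as were those of 66.7% of all genes tested in VvSUC11-OE, 56.3% in VvSUC12-OE and 60.9% for VvSUC27-OE. Both were chosen on these values, so nothing is read from that count. The 3 comparisons share the WT libraries.

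Within the family, SlPIN5 lost its place and SlPIN6 held or raised its own. In the WT, SlPIN6 ranked 4 of 9 and SlPIN5 ranked 6 by mean FPKM. SlPIN6, SlPIN3 and SlPIN5 stood at 7.08, 6.91 and 5.97 FPKM in the WT, and neighbours in this stretch overlapped in their replicates, down to SlPIN7 at 4.61 FPKM. In all 3 lines SlPIN5 ranked 8 of 9, under SlPIN8 in every replicate. SlPIN6 ranked 4 in the WT, in VvSUC11-OE and in VvSUC27-OE, and 3 in VvSUC12-OE, where its range overlapped with that of SlPIN9 just below it.

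The 9 genes summed to 99.8 ± 3.40 FPKM in the WT, 89.3 ± 5.78 in VvSUC11-OE, 96.8 ± 5.67 in VvSUC12-OE and 116 ± 4.05 for VvSUC27-OE (SD, n = 3). SlPIN5 made up 5.98% of the family mean in the WT and 0.0225%, 0.665% and 0.0931% for VvSUC11-OE, VvSUC12-OE and VvSUC27-OE. SlPIN6 made up 7.10% in the WT, 10.1% in VvSUC11-OE, 14.8% in VvSUC12-OE and 7.99% for VvSUC27-OE. SlPIN4, known in tomato for its part in fruit set, was the highest member in every group, at 42.5, 42.4, 31.8 and 51.5 FPKM in the WT, VvSUC11-OE, VvSUC12-OE and VvSUC27-OE.

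**Figure D2:**
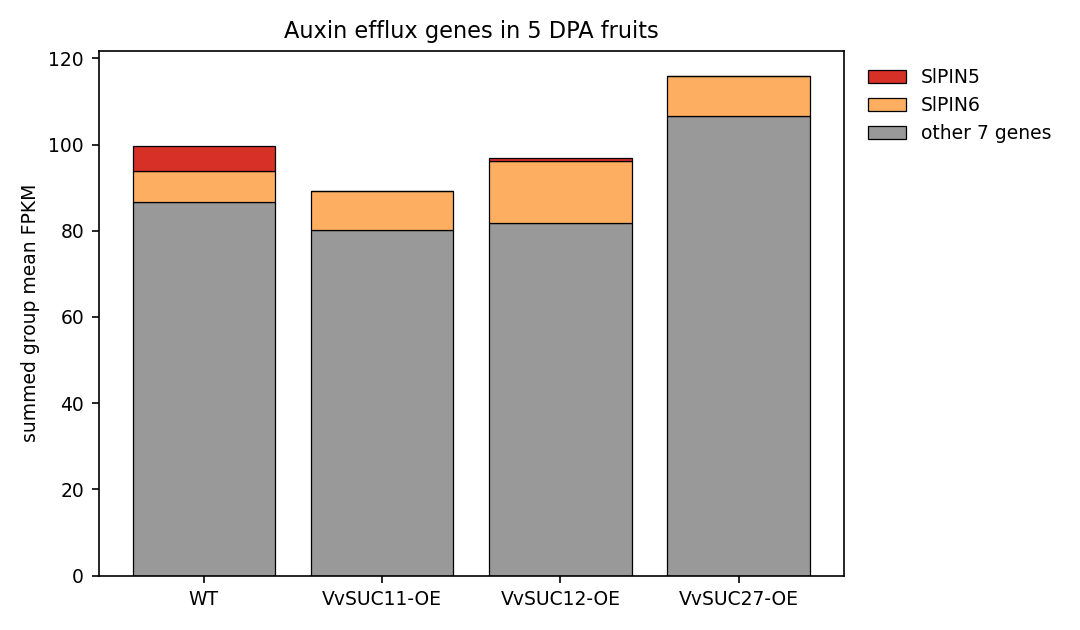
Summed group mean FPKM of the 9 auxin efflux genes in each group, SlPIN5 in red, SlPIN6 in orange and the sum of the other 7 in grey. The red segment is 5.98% of the WT bar and under 1% of every other bar, and the orange segment is widest in VvSUC12-OE, at 14.8%.

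The other auxin efflux genes were chosen by annotation alone and could be tested. Of these 7, SlPIN2 was under the filter of 10 scaled counts in 3 libraries and was not tested: it had 3, 6 and 4 scaled counts in the WT and 0 in all 9 transgenic libraries. None of the other 6 was a DEG (differentially expressed gene, at an FDR under 0.01 and an absolute log2FC above 1, by limma) in any line against the WT, where 14.7% of all genes tested were DEGs in VvSUC11-OE, 8.6% in VvSUC12-OE and 11% for VvSUC27-OE. At an unadjusted p under 0.05, 4 of the 6 passed in VvSUC11-OE, 4 in VvSUC12-OE and 5 for VvSUC27-OE, with 66.4%, 55.6% and 60% of all genes passing in the same comparisons. By the FDR alone, 3 of 6 passed in each line, with 52.6%, 39.5% and 44.4% of all genes passing for VvSUC11-OE, VvSUC12-OE and VvSUC27-OE.

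SlPIN7 was the one other member that rose in all 3 lines. Its means were 4.61 ± 0.619 FPKM in the WT, 8.54 ± 0.752 in VvSUC11-OE, 7.19 ± 0.627 in VvSUC12-OE and 8.08 ± 0.777 for VvSUC27-OE. Its log2FC was 0.90 (SE 0.108, adjusted p = 3.51e-06 by limma), 0.71 (SE 0.108, adjusted p = 2.58e-05) and 0.84 (SE 0.113, adjusted p = 5.95e-06) in these lines. All 9 transgenic libraries lay above the highest of the WT. SlPIN7 differed little between lines, with no comparison between lines passing the FDR.

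SlPIN4 moved in opposite directions in 2 lines. It fell in VvSUC12-OE (log2FC -0.39, adjusted p = 6.85e-08) and rose in VvSUC27-OE (log2FC 0.29, adjusted p = 4.9e-06), with 0.02 in VvSUC11-OE (adjusted p = 0.729, limma). VvSUC12-OE, the line with the most SlPIN6, was thus the line with the least SlPIN4.

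SlPIN3 and SlPIN9 fell in VvSUC11-OE. SlPIN3 went from 6.91 ± 0.203 FPKM in the WT to 3.48 ± 0.348 FPKM, a log2FC of -0.98 (SE 0.106, adjusted p = 1.18e-06, limma) that lies at the edge of the DEG threshold: without VvSUC11-OE replicate 1 or replicate 3 the gene was a DEG. SlPIN9 went from 14.2 ± 0.909 to 9.73 ± 1.08 FPKM in that line (log2FC -0.57, adjusted p = 4.35e-05). Neither passed the FDR in VvSUC12-OE or VvSUC27-OE, where the log2FC was -0.24 and -0.25 for SlPIN3 and -0.09 and 0.07 for SlPIN9. SlPIN8, the lowest tested member, overlapped with the WT in every line, with log2FC of 0.30, 0.33 and 0.47 and SEs of 0.203 to 0.216.

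**Figure D3:**
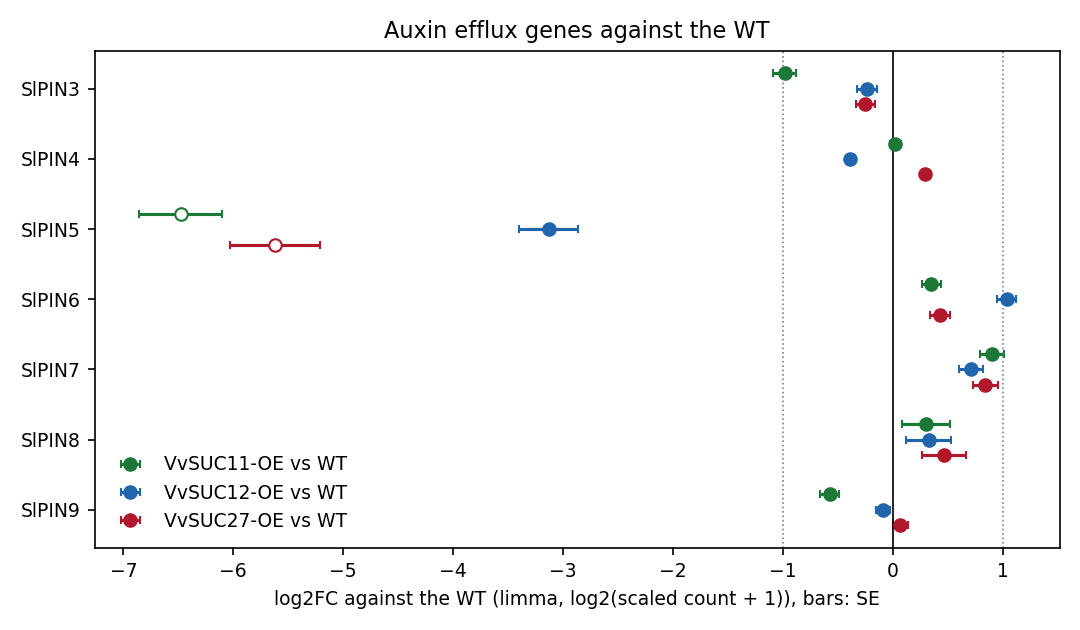
Fitted log2FC against the WT of SlPIN5, SlPIN6 and 5 other auxin efflux genes above the filter, for the 3 lines, with the SE as bars and dotted lines at the DEG limits of -1 and 1. Open circles mark groups of at most 3 scaled counts per library, whose fitted value is no measure of size, and SlPIN5 stands at -3.13 or lower while the 5 others lie between -0.98 and 0.90.

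Between lines, 0 of the 6 were DEGs in the 3 comparisons by limma, against 10.2% of all genes for VvSUC12-OE and VvSUC11-OE, 10.7% for VvSUC27-OE and VvSUC11-OE and 6.8% for VvSUC27-OE and VvSUC12-OE. At an unadjusted p under 0.05, 4, 4 and 3 of them passed in these comparisons, beside 63.9%, 65.7% and 51.2% of all genes. By the FDR, 4 of 6 differed between VvSUC12-OE and VvSUC11-OE (background 49.7%), 4 between VvSUC27-OE and VvSUC11-OE (52.2%) and 1 between VvSUC27-OE and VvSUC12-OE (34.2%). SlPIN3 and SlPIN9 were lower in VvSUC11-OE than in both other lines, with log2FC of 0.75 and 0.48 for VvSUC12-OE and 0.73 and 0.64 for VvSUC27-OE over it. SlPIN4 was higher in VvSUC27-OE than in VvSUC12-OE, with a log2FC of 0.68 (SE 0.0394, adjusted p = 4.44e-11), whereas the fitted log2FC of SlPIN6 in that comparison was -0.61.

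The loss of SlPIN5 transcript was shared by the next gene in the table. The 5 listed genes on each side of SlPIN5 by gene number were looked at after the levels of SlPIN5 were known, and 8 of these 10 passed the filter. Of the 8, 7 were DEGs in no line, with log2FC no larger than 0.72 in size. The exception was gene1393, trichome birefringence-like 38, of a family known in Arabidopsis for acetyl groups on cell wall polysaccharides. It is singled out here because of its values.

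gene1393 held 901, 798 and 623 scaled counts in the WT and 0 in each VvSUC11-OE library. It held 42, 33 and 36 scaled counts in VvSUC12-OE and 2, 0 and 1 in VvSUC27-OE, so that, as for SlPIN5, the WT was highest and VvSUC12-OE lay above both other lines. Its mean was 36.4 ± 6.56 FPKM in the WT, 1.79 ± 0.205 in VvSUC12-OE and 0.0775 ± 0.0712 in VvSUC27-OE (SD, n = 3), and it was listed at 0 in VvSUC11-OE. It was at least 258-fold lower in VvSUC11-OE than in the WT (against 3 scaled counts per library), and the WT stood 20.9-fold above VvSUC12-OE, with a counting interval of 17.3 to 25.5. No p-value is given for gene1393, since it was singled out by its values. In VvSUC11-OE and VvSUC27-OE it passed the filter through the WT libraries alone. On the other side of SlPIN5, gene1390, tubulin-folding cofactor A, had a log2FC of 0.35, 0.20 and 0.06.

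The genes beside SlPIN6 did not rise with it in all lines. Of the 10 listed genes nearest to it, 7 were tested in VvSUC11-OE and 6 in each of the other lines. The next gene below, gene15299, an acyl-[acyl-carrier-protein] desaturase gene, held 18, 9 and 14 scaled counts in the WT and 82, 100 and 86 in VvSUC11-OE (fitted log2FC 2.67). It passed the filter only through the VvSUC11-OE libraries, so no p-value is given. In VvSUC12-OE, where SlPIN6 was highest, gene15299 held 1, 4 and 3 scaled counts, and in VvSUC27-OE 0, 2 and 6. All of these lay below the WT libraries, and the gene was tested in neither line. The next gene above, gene15301, alcohol dehydrogenase 2, fell in every line, with log2FC of -0.74, -0.24 and -1.30 (adjusted p = 2.81e-11, 1.83e-07 and 4.71e-17), and was a DEG in VvSUC27-OE. The other tested neighbours had log2FC between -0.28 and 0.25.

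**Figure D4:**
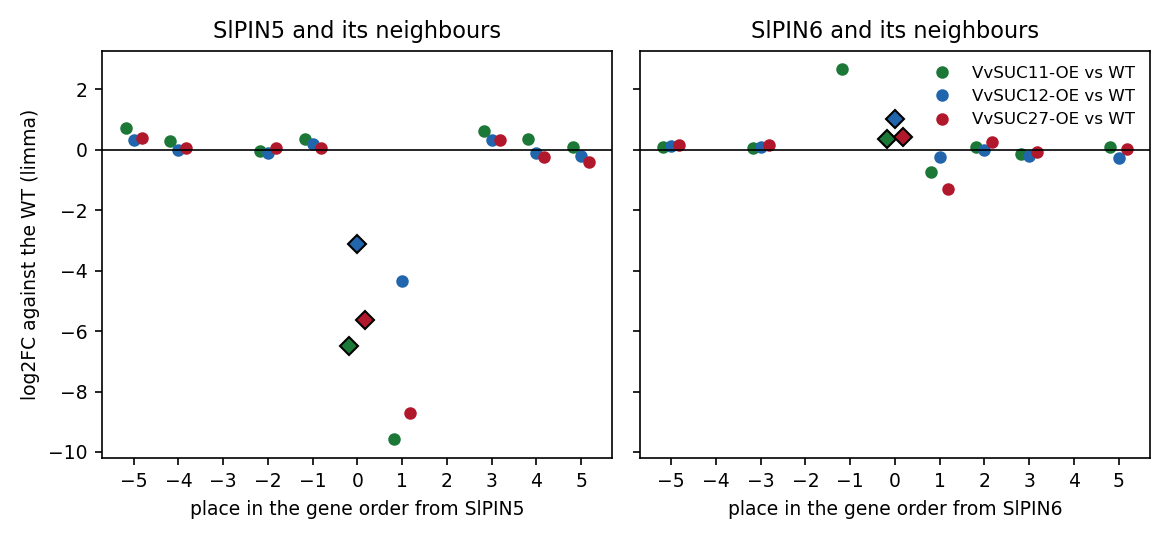
Fitted log2FC against the WT (limma) of SlPIN5 and SlPIN6 (diamonds at place 0) and of the tested genes among the 5 listed on each side by gene number (circles), in the 3 lines. At place 1 from SlPIN5, gene1393 lies at -9.58, -4.34 and -8.72, and the other circles of that panel lie between -0.39 and 0.72. The values of SlPIN5 and gene1393 in VvSUC11-OE and VvSUC27-OE depend on the added count and are no measure of size.

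The genes most like each member were sought among 14130 annotated genes that averaged 10 scaled counts or more, by the root mean square (RMS) difference over the 12 libraries of log2(scaled count + 1) relative to the WT mean. The 5 nearest to SlPIN5 differed from it by an RMS of 0.580 to 0.901. In order they were gene27229, a lysosomal Pro-X carboxypeptidase-like gene, gene22772, the bidirectional sugar transporter NEC1, gene27227, a putative flavonoid 3'5' hydroxylase, gene12581, a heavy metal-associated isoprenylated plant protein 26-like gene, and gene13916, a glycerol-3-phosphate acyltransferase 5-like gene. NEC1, of the SWEET family of sugar carriers, went from 10.99 ± 2.35 FPKM in the WT to 0.0691 ± 0.0721, 1.14 ± 0.435 and 0.441 ± 0.273 FPKM for VvSUC11-OE, VvSUC12-OE and VvSUC27-OE. gene27229 went from 4.09 ± 0.444 FPKM to 0.0366 ± 0.0351, 0.365 ± 0.0539 and 0.0243 ± 0.0211 FPKM. In all 5, VvSUC12-OE kept the highest mean of the 3 lines.

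The 5 nearest to SlPIN6 lay closer, at an RMS of 0.126 to 0.138, over a smaller range of change. They were gene6089, the phosphate transporter PHO1 homolog 3, gene11337, the ripening regulated protein DDTFR8, gene20615, the probable transcription factor KAN2, gene4444, an E3 ubiquitin-protein ligase RNF185-like gene, and newGene_1845, a dehydration-responsive element-binding protein 2D-like gene. KAN2, whose Arabidopsis counterpart takes part in the polarity of lateral organs, had 15.9 ± 1.23 FPKM in the WT, 21.2 ± 2.36 in VvSUC11-OE, 28.8 ± 0.0834 in VvSUC12-OE and 20.9 ± 0.376 for VvSUC27-OE. DDTFR8 had 42.2 ± 1.82, 59.1 ± 3.76, 87.4 ± 4.91 and 56.6 ± 4.85 FPKM in the same groups. Both lists were picked by their values in these libraries and carry no test.

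**Figure D5:**
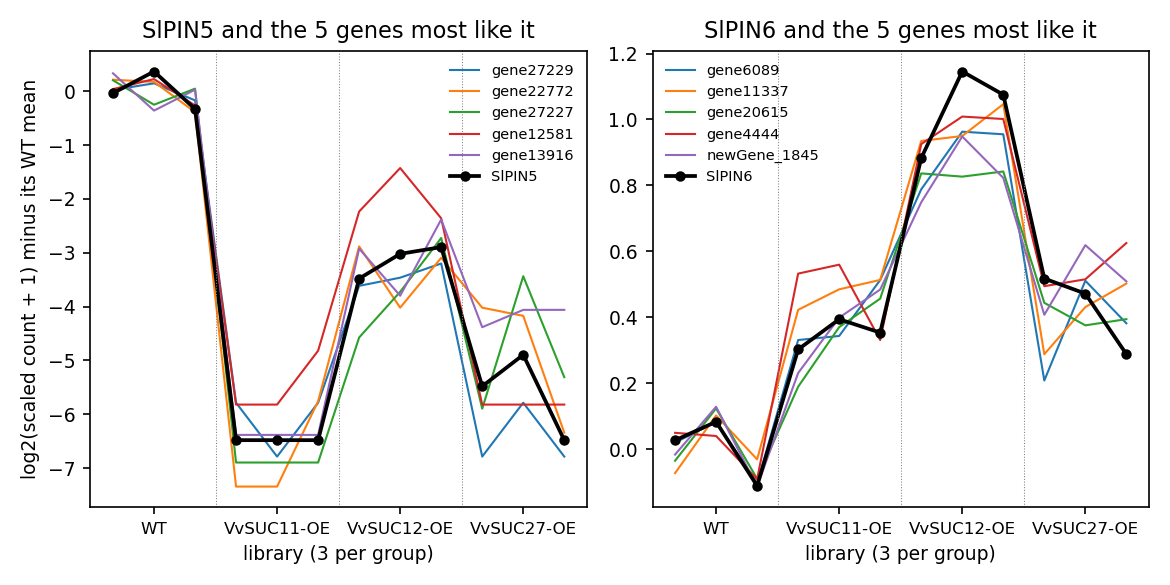
log2(scaled count + 1) minus its WT mean in each of the 12 libraries, for SlPIN5 (left) and SlPIN6 (right) in black and for the 5 annotated genes most like each in colour. In the left panel all lines lie below the WT in every transgenic library, and in the right panel all lines peak in VvSUC12-OE, and the left axis spans a far wider range than the right one.

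Other genes of auxin transport, synthesis and response were taken from lists fixed by words in the annotation. The auxin carrier list (PIN-LIKES, ABCB and related carriers) held 15 genes, of which 8 were tested against the WT. No auxin influx carrier of the AUX1 LAX family was matched by the words used, so the list does not cover influx carriers. In it 1 gene was a DEG, gene6012, an ABC transporter B family member 15-like gene, at 1.35 ± 0.122 FPKM in the WT and 5.72 ± 0.349 FPKM in VvSUC11-OE (log2FC 2.09, adjusted p = 6.78e-11, limma). In VvSUC12-OE and VvSUC27-OE 0 of the 8 were DEGs, where 14.7%, 8.6% and 11% of all genes were DEGs for VvSUC11-OE, VvSUC12-OE and VvSUC27-OE. By the FDR alone, 5 of the 8 passed in VvSUC11-OE (3 higher and 2 lower), 3 in VvSUC12-OE and 4 for VvSUC27-OE, with 52.6%, 39.5% and 44.4% of all genes passing. The median log2FC of the 8 was 0.56, 0.06 and -0.01 for VvSUC11-OE, VvSUC12-OE and VvSUC27-OE, beside -0.03, -0.01 and 0.00 for all genes tested.

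The PIN regulator list held 30 genes, for kinases, phosphatase subunits, adaptors, GNOM exchange factors and the auxin transport protein BIG. They were matched by words in the annotation, and whether each acts on PIN proteins in tomato was not tested. Among these 30 genes, 1 rose and 3 fell as DEGs in VvSUC11-OE, 0 rose and 2 fell in VvSUC12-OE, and 1 rose and 2 fell in VvSUC27-OE. These shares, 13.3%, 6.67% and 10%, were near those of all genes, of which 7.39%, 3.31% and 3.8% rose and the shares given below for the synthesis list fell. gene18581, a WAG2-like gene for a kinase of the family that phosphorylates PIN proteins in Arabidopsis, fell in all 3 lines. It had 8.70 ± 0.0313 FPKM in the WT and 2.09 ± 0.469, 2.31 ± 0.445 and 1.75 ± 0.413 FPKM for VvSUC11-OE, VvSUC12-OE and VvSUC27-OE. Its log2FC was -2.12, -2.01 and -2.32 (adjusted p = 1.48e-08, 1.97e-09 and 5.82e-10, limma), and its WT libraries held 244 to 248 scaled counts against at most 71 in any other library.

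The remaining DEGs of that list were adaptors of the NPH3 family, to which the NPY and root phototropism proteins belong. NPY2 (gene3280) rose in VvSUC11-OE (log2FC 1.02, adjusted p = 2.04e-08) and VvSUC27-OE (log2FC 1.28, adjusted p = 1.66e-11, limma). The root phototropism 3-like gene24379, at 0.758 ± 0.0375 FPKM in the WT, fell to 0.154 ± 0.105 FPKM in VvSUC11-OE and 0.0651 ± 0.0967 FPKM in VvSUC27-OE. In VvSUC27-OE, at 0 to 9 scaled counts, it passed the filter through the WT libraries alone. An NPY2-like gene, gene24466, fell in VvSUC11-OE (log2FC -1.91), and root phototropism 2 (gene17930) fell in VvSUC12-OE (log2FC -1.86).

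The list of auxin synthesis and conjugation, 43 genes, held more DEGs than the background in each line: 12 of 32 tested (37.5%) in VvSUC11-OE, 9 of 31 (29.0%) in VvSUC12-OE and 9 of 30 (30.0%) in VvSUC27-OE. Of these, 9, 8 and 9 fell (28.1%, 25.8% and 30.0% of those tested, against 7.33%, 5.3% and 7.22% of all genes), and the median log2FC was -0.52, -0.27 and -0.40, the same with genes at 0 in a group set to their bound. Of the genes tested, 3, 2 and 2 were at 0 in a group and passed the filter through the other group alone. These shares thus depend in part on the filter. In VvSUC27-OE the 9 DEGs became 5 without WT replicate 2 or replicate 3. With a WT library left out, a gene that had passed through the WT alone was no longer tested. The DEGs became 3 when genes had to average 50 scaled counts, which also tests fewer genes. Matched by words, the list also took in 10 flavin-containing monooxygenase genes not named YUCCA (FMO GS-OX and probable monooxygenase 1 genes), and 7 ILR1-like hydrolase genes, whose enzymes free auxin from its amino acid conjugates. Without those 10, the DEGs were 10 of 24, 8 of 23 and 8 of 23 genes tested for VvSUC11-OE, VvSUC12-OE and VvSUC27-OE, of which 8 fell in each line. The hydrolase genes held 0, 1 and 0 DEGs among 7 tested. The gene with the largest fitted fall in all 3 lines was newGene_2222, a YUCCA10 gene for a flavin monooxygenase of the last step of auxin synthesis. It held 30 to 43 scaled counts in the WT and 0 in all 9 transgenic libraries, at least 12.4-fold lower in each line. GH3.1 (gene4377), for an enzyme that couples auxin to amino acids, held 14 to 40 scaled counts in the WT and 0 in VvSUC11-OE, at least 9-fold lower. GH3.5 (gene30201) held 10 to 29 in the WT and 0 in VvSUC12-OE and VvSUC27-OE, at least 5.78-fold lower. In the comparisons named, newGene_2222, gene4377 and gene30201 passed the filter through the WT libraries alone.

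The auxin response list of 47 Aux/IAA, ARF and receptor genes, 46 of them tested, held 4, 5 and 6 DEGs (8.70%, 10.9% and 13.0%) for VvSUC11-OE, VvSUC12-OE and VvSUC27-OE, beside 14.7%, 8.6% and 11% of all genes. IAA14 (gene23038), for a repressor of auxin responses, had 1.92 ± 0.582 FPKM in the WT and 0.311 ± 0.199 FPKM in VvSUC11-OE. At 15 to 25 scaled counts in the WT and 0 to 4 in VvSUC11-OE, it passed the filter through the WT libraries alone. For that comparison (fitted log2FC -2.79) no p-value is given. In VvSUC12-OE it rose to 8.38 ± 0.849 FPKM (log2FC 2.02, adjusted p = 1.63e-06, limma). ARF9 (gene21224), known in tomato as a brake on cell division in the young fruit, fell from 9.38 ± 0.247 to 2.27 ± 0.521 FPKM in VvSUC11-OE. IAA35 (gene17148) fell in VvSUC12-OE (log2FC -1.61) and VvSUC27-OE (log2FC -2.21), and IAA22 (gene14509) fell in VvSUC27-OE (log2FC -3.02).

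Markers of the tissues in a whole fruit differed between groups beside SlPIN5 and SlPIN6. The 84 seed markers summed to 714 to 729 FPKM in the WT, 616 to 686 in VvSUC11-OE, 644 to 672 in VvSUC12-OE and 793 to 810 in VvSUC27-OE, with 14, 11, 24 and 19 of them at 0 scaled counts. Such sums are set mainly by the highest genes. Among 54 seed markers tested in VvSUC11-OE, 17 rose and 8 fell as DEGs (46.3%, beside 14.7% of all genes). In VvSUC12-OE, 2 rose and 5 fell among 42 (16.7%, beside 8.6%). In VvSUC27-OE, 3 rose and 9 fell among 42 (28.6%, beside 11%). The median log2FC of the tested seed markers was 0.28, 0.04 and -0.09 for these lines. A gene could pass the filter through the group where it was high, and more seed markers passed in VvSUC11-OE than in the other lines. Of those tested, 5, 1 and 1 were at 0 in a group. The shares and medians thus depend in part on the filter. Among them, 4 anthocyanidin reductase genes, of tannin synthesis in the seed coat, summed to 1.74 to 2.88 FPKM in the WT to 0.374 to 0.773 FPKM in VvSUC11-OE, 0.294 to 0.468 FPKM in VvSUC12-OE and 0.287 to 0.575 FPKM in VvSUC27-OE. Like SlPIN5 they were lower in every transgenic library than in the WT, but unlike it they were not higher in VvSUC12-OE than in the other lines. The 8 oleosin genes, for proteins of seed oil bodies, summed to 34.7 to 60.9 FPKM in VvSUC11-OE against 12.1 to 13.4 FPKM in the WT, 7.49 to 11.6 FPKM in VvSUC12-OE and 10.2 to 14.1 FPKM in VvSUC27-OE. The 12 storage globulin genes were likewise highest in VvSUC11-OE, at 4.79 to 9.75 FPKM against 0.801 to 1.20 FPKM in the WT, 0.712 to 2.60 FPKM in VvSUC12-OE and 0.475 to 0.639 FPKM in VvSUC27-OE. The 8 AGL62 genes, of the endosperm, summed to 3.32 to 3.82 FPKM in the WT and 2.62 to 5.32 FPKM in the lines. The 30 green tissue markers were lowest in VvSUC12-OE, at 8975 to 9466 FPKM, with none at 0 in any group. They summed to 12638 to 13732 FPKM in the WT, 10683 to 11280 in VvSUC11-OE and 12235 to 12709 in VvSUC27-OE. The 27 genes of the fruit marker list summed to 847 to 872 FPKM in the WT and 952 to 979 in VvSUC11-OE. Their sums were 913 to 939 in VvSUC12-OE and 770 to 792 in VvSUC27-OE. Matched by words, that list also took in agamous-like genes, among them AGL61 genes and the AGL62 and AGL80 genes counted as seed markers. It is thus not specific to the carpel or pericarp. The 28 flower markers summed to 2234 to 2301 FPKM in the WT, 2509 to 2535 in VvSUC11-OE, 2477 to 2549 in VvSUC12-OE and 2282 to 2307 in VvSUC27-OE. The 39 vascular markers summed to 146 to 162 FPKM in the WT, 171 to 185 in VvSUC11-OE, 156 to 163 in VvSUC12-OE and 156 to 176 in VvSUC27-OE. The tested flower markers had a median log2FC of 0.17, -0.000837 and 0.03 for VvSUC11-OE, VvSUC12-OE and VvSUC27-OE. For the tested vascular markers the median was 0.31, -0.17 and 0.30 in the same order. The part of these differences in the levels of SlPIN5 and SlPIN6 was not tested.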

How the data were processed

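RNA was sequenced from 12 libraries of 5 DPA fruits, 3 per group. The authors mapped the reads with TopHat to the tomato genome build SL2.50 and deposited FPKM made with cuffnorm, and counts that had been scaled to a common size and made whole, apparently by cutting down. These deposited counts are a score and not read numbers, so no count model was used for the tests between groups, and the exact binomial intervals, which treat them as counts, are approximate. The columns of the authors' own comparisons (FDR and log2 fold changes) and the tables that repeat annotations were not used here.

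Groups were compared with limma 3.58.1 in R 4.3.3 (lmFit, eBayes with a trend) on log2(scaled count + 1), with only the 6 libraries of the groups compared. A gene was tested where 3 or more of these libraries held 10 scaled counts or more. The adjusted p is the Benjamini-Hochberg FDR over all genes tested. Values were handled with the data.table package (1.17.8), Python 3.11.15, pandas 2.3.3 and numpy 2.4.6, exact binomial intervals with scipy 1.17.1, and plots with matplotlib 3.10.9. The fit was tested on simulated data. Totals differed by at most 1.06 times between libraries, and intervals cover counting error only, with fragments that carry no molecular identifiers. Replicates were called biological by the study, so p-values measure the spread within 1 line per genotype.

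The members and lists were chosen with earlier results of these data known. Named were the auxin efflux genes (1 item is counted but not reported here), DEGs of the carrier and PIN regulator lists in any comparison with the WT, the 2 DEGs with the largest absolute log2FC per line of the synthesis and response lists, and the 5 genes most like each member. The neighbours were added later. The alternatives were pseudocounts of 0.5 and 4, other filters, FPKM, rescaling, a fit on 12 libraries, a replicate block and leaving out each library. The SlPIN5 ratio of 90.0 was also taken on FPKM, rescaled and with libraries left out, alternatives added after seeing the data. RefSeq (SLM_r2.1, another build than the authors') was used for names only.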

Additional observations from a re-analysis of the deposited data

Results flagged for a closer look

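SlPIN4 responded in opposite directions in VvSUC27-OE and VvSUC12-OE fruits. Its log2FC against the WT was 0.29 in VvSUC27-OE and -0.39 in VvSUC12-OE, and in the direct comparison of the lines it was higher in VvSUC27-OE by a log2FC of 0.68 (SE 0.0394, adjusted p = 4.44e-11 by limma), in 3 of 3 libraries. The scaled counts were 1358 to 1414 in VvSUC12-OE, 1801 to 1842 in the WT and 2113 to 2291 in VvSUC27-OE, with no overlap. The difference kept its direction under every alternative tried, at a log2FC of 0.66 to 0.71 when single libraries were left out.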

How the results depend on the processing

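The folds of SlPIN5 and SlPIN6 moved by less than the spread between replicates with scaled counts in place of FPKM, with rescaling and with single libraries left out, the alternatives that bear on a fold of group means. With single libraries left out, SlPIN5 was 8.13 to 10.3 times lower in VvSUC12-OE than in the WT. It was at least 26.3 to 33.2 times lower in VvSUC11-OE and in VvSUC27-OE. The ratio of its cut-down scaled counts between the WT and VvSUC27-OE was 60.0 to 180 (90.0 with all libraries, 92.7 after rescaling and 55.3 on the FPKM). With single libraries left out, SlPIN6 was 1.23 to 1.30, 1.94 to 2.15 and 1.27 to 1.36 times higher for VvSUC11-OE, VvSUC12-OE and VvSUC27-OE. The replicate numbers did not pair the libraries: same-numbered libraries correlated at -0.0789 to 0.0823 in their deviations from the group means, with at most 1 of 3 libraries closest to its own number, and with the replicate block 0 of the other auxin efflux genes were DEGs in any comparison, as without it.

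Without the filter, 1 of the other auxin efflux genes, SlPIN2, was a DEG in each line against the WT, because the filter alone had kept it out, and with libraries left out the count in VvSUC11-OE was 0 to 1. When genes had to average 50 scaled counts, which tests fewer genes, the PIN regulators had 2 DEGs in VvSUC11-OE, and the synthesis list had 5, 4 and 3 for VvSUC11-OE, VvSUC12-OE and VvSUC27-OE and 5, 4 and 3 in the comparisons of VvSUC12-OE with VvSUC11-OE, VvSUC27-OE with VvSUC11-OE and VvSUC27-OE with VvSUC12-OE. With this filter the response list had 2 DEGs in VvSUC11-OE, and 2, 3 and 0 between lines in the same order. For VvSUC27-OE with VvSUC12-OE, FPKM gave 5 DEGs in the synthesis list, and rescaling gave 4 in the response list. The cause of these last differences was not tested.

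With libraries left out, the counts of DEGs were 1 to 2 for the carriers in VvSUC11-OE, 5 to 9 for synthesis in VvSUC27-OE against the WT and 4 to 7 against VvSUC12-OE, and, for VvSUC12-OE with VvSUC11-OE, 2 to 4 for PIN regulators and 2 to 4 for the response list. A gene that had passed the filter through 1 group alone was no longer tested once a library of that group was left out. The log2FC of SlPIN4 in VvSUC11-OE against the WT was -0.00612 with FPKM and -0.045 to 0.0632 with libraries left out. Others that changed sign without passing the FDR were SlPIN8 for VvSUC12-OE with VvSUC11-OE (-0.156 to 0.218), VvSUC27-OE with VvSUC11-OE (-0.0165 to 0.332) and VvSUC27-OE with VvSUC12-OE (-0.0542 to 0.307), SlPIN7 for VvSUC27-OE with VvSUC11-OE (-0.141 to 0.0342) and SlPIN3 for VvSUC27-OE with VvSUC12-OE (-0.0776 to 0.0772). Of all values of DEG counts, 393 stayed within 1.5 times or at 0, 8 were higher and 19 lower. At 0 to 2 scaled counts per library, a difference in SlPIN5 between VvSUC11-OE and VvSUC27-OE was not detectable.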
